A study of Mus musculus with 2 samples.

Results

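Edn2, Fgf2 and Lif encode secreted factors of the injured retina, and they are described here together with Ednrb, Fgfr1, Fgf2os, Cntf and Bdnf in retinal cells 7 days after sodium iodate. The 8 genes were taken by symbol from the 31053 genes of the count tables of both libraries, and each symbol matched 1 gene. They had been chosen with earlier results of these libraries in view, so that their differences between the libraries are descriptions and carry no test. NaIO3 stands for 1 library, made from retinas of 6 mice pooled after 20 mg/kg sodium iodate into a vein. PBS stands for 1 library made likewise from 6 mice that received an equal volume of saline. Retinas of both groups were taken on day 7, and strain, age and sex are not given in the labels. Retinas were digested with papain. Both libraries are labelled as CD11b-positive microglia, although the protocol names CD11b beads for the NaIO3 pellets alone. The markers went against that label: rods made up 55.2% of the kept cells in NaIO3 and 91.7% in PBS, and immune cells 17.4% and 0.126%.

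Sodium iodate is an oxidant that injures the retinal pigment epithelium, after which photoreceptors degenerate. In mouse retinal degeneration, Müller glia release LIF, a cytokine that signals through LIFR and gp130 (Il6st) to STAT3, and injured photoreceptors make endothelin 2, whose receptor EDNRB sits on glia. FGF2 acts through FGFR1 and is a survival factor for photoreceptors, CNTF shares gp130 with LIF, and BDNF signals through TrkB. Fgf2os is transcribed from the strand opposite to Fgf2.

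Cells were sorted into classes by the share of their UMIs (unique molecular identifiers, each counting 1 captured RNA molecule) in marker lists of each cell type. The rods numbered 5208 in NaIO3 and 5110 in PBS, with medians of 2450 and 2392 UMIs and all 15 rod markers detected in both. The cones numbered 106 and 117, the bipolar cells 443 and 44, and the Müller glia 176 and 28, so that 1 UMI was worth 0.476 CPM (UMIs of a gene per 1000000 UMIs of the class) in NaIO3 Müller glia and 6.52 CPM in PBS Müller glia. Another 1781 NaIO3 and 246 PBS cells held markers of several classes or too few of any. Among them, 407 NaIO3 and 30 PBS droplets held both Müller and rod markers, with medians of 30461 and 2127 UMIs. Of all Edn2 UMIs in kept cells, the 1781 and 246 unclassed cells held 46.9% in NaIO3 and 1.79% in PBS. The shares were 49.3% and 16.1% for Fgf2, 64.4% and 21.7% for Ednrb, 77.2% and 24.4% for Fgfr1, and 64.7% and 28.2% for Bdnf. Class levels leave these UMIs out. The 2 libraries shared 24 cell barcodes, and mitochondrial genes gave a median of 2.03% of UMIs in NaIO3 rods and 7.02% in PBS rods. With 1 library per group there is no replicate check, and every interval below is a 95% interval that covers counting error only.

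The bases before the start sites of Edn2 and Lif are shown because these ligands had their highest NaIO3 levels in different classes, rods and Müller glia. RefSeq promoter windows on GRCm38.p6 matched 7 of the 8 members, all but Fgfr1. Both strands of the 250 bases before each start were searched for an AP-1 motif (TGANTCA), a STAT motif (TTCNNNGAA) and a photoreceptor CRX motif (TAATCC), which 6.75%, 7.02% and 6.25% of all 32851 windows of that length held. The Edn2 window held none of them, and the Lif window held an AP-1 match, printed in capitals. Both sequences run 5′ to 3′ on the gene's strand, the plus strand, and the 239 bases printed for Lif are its window of 250 without the last bases, which lie inside the GENCODE gene.
Edn2, chr4:120160956-120161205: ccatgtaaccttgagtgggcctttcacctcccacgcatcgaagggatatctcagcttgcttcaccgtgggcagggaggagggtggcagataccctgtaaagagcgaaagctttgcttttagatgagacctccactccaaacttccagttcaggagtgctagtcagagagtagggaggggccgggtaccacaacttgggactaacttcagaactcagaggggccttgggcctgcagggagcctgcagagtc
Lif, chr11:4257318-4257556: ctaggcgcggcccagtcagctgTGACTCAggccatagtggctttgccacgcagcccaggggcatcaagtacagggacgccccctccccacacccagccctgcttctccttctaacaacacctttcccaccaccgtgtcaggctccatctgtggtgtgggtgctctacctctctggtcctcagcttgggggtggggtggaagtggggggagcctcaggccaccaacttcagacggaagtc
Of the other members, Bdnf, which has 7 windows, held an AP-1 and a STAT match in at least 1 of them, Cntf an AP-1 match, and Cntf and Ednrb a CRX match. A match is a description of the letters and not of a bound site.

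Edn2, the endothelin 2 ligand (chromosome 4, 120161206 to 120167360, plus strand, as all gene positions here from GENCODE M21 on mm10), was highest in NaIO3 rods. It gave 3528 UMIs in 1952 of 5208 NaIO3 rods, against 55 UMIs in 39 of 5110 PBS rods. These are levels of 196 CPM (190 to 203) in NaIO3 rods and 3.20 CPM (2.41 to 4.16) in PBS rods, a ratio of 61.3 (47.0 to 81.5). Among the classes of the NaIO3 library its level was next in cones, with 52.3 CPM (38.7 to 69.1), then in Müller glia with 17.1 CPM, in bipolar cells with 12.2 CPM, in endothelial cells and pericytes with 7.91 CPM and in immune cells with 3.74 CPM. The intervals of rods and of cones overlapped no other, and from Müller glia down each overlapped the next. PBS cones, bipolar cells, Müller glia and immune cells held 0 Edn2 UMIs, so the level in NaIO3 cones was at least 17.9-fold and that in NaIO3 bipolar cells at least 1.48-fold higher than a PBS floor of 3 UMIs per class. In Müller glia the NaIO3 level lay below that floor.

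Outside rods, Edn2 UMIs stood near the rods' ratio to those of Sag, the arrestin of rods, which mouse cones also make. In the NaIO3 library there were 19.0 Edn2 UMIs per 1000 Sag UMIs in rods (18.4 to 19.6), 12.9 in cones (9.5 to 17.1), 20.7 in Müller glia (14.5 to 28.8) and 23.0 in immune cells (18.2 to 28.6). Droplets with both Müller and rod markers had 24.8 (23.7 to 26.0), and bipolar cells 28.4 (19.8 to 39.5), from 36 Edn2 UMIs. The intervals of Müller glia and immune cells overlapped that of rods, while cones lay below it and bipolar cells and the mixed droplets above it. At the rods' ratio, the Sag UMIs of Müller glia corresponded to 33.0 Edn2 UMIs where 36 were counted, and those of immune cells to 67.9 where 82 were counted. With a stricter marker gate, the 32 remaining NaIO3 cones held 0 Edn2 UMIs. PBS rods had 0.338 Edn2 UMIs per 1000 Sag UMIs, at a Sag level of 10315 CPM in NaIO3 rods and 9448 CPM in PBS rods.

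**Figure D1:**
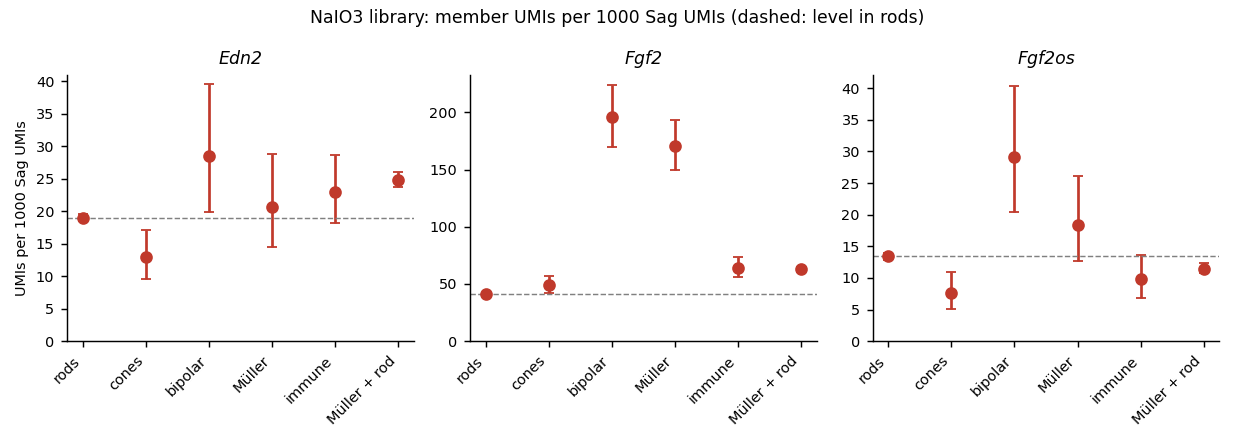
UMIs of Edn2, Fgf2 and Fgf2os per 1000 Sag UMIs (vertical axes) in the cell classes of the NaIO3 library, with 95% counting intervals; "Müller + rod" are droplets with both marker sets, and the dashed line is the level in rods. Edn2 runs from 12.9 in cones to 28.4 in bipolar cells around 19.0 in rods, while Fgf2 reaches 196 in bipolar cells and 171 in Müller glia against 41.0 in rods.

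Fgf2 (chromosome 3, 37348346 to 37410108, plus strand), a survival factor for photoreceptors, was higher in NaIO3 than in PBS in rods, cones, bipolar cells and Müller glia. Rods held 7613 UMIs in NaIO3 (423 CPM, 414 to 433) and 360 UMIs in PBS (20.9 CPM, 18.8 to 23.2), a ratio of 20.2 (18.2 to 22.5). Cones held 199 CPM in NaIO3 (172 to 230) and 6.80 CPM in PBS (2.74 to 14.0), a ratio of 29.3 (13.9 to 73.9). Müller glia held 141 CPM in NaIO3 (125 to 158) and 52.1 CPM in PBS (22.5 to 103), a ratio of 2.70 (1.35 to 6.31) that rests on 8 PBS UMIs. NaIO3 bipolar cells held 84.1 CPM (74.0 to 95.3) against 0 UMIs in PBS bipolar cells, at least 10.2-fold higher. In the NaIO3 library the order was rods, cones, Müller glia, bipolar cells and then immune cells with 10.4 CPM, and no neighbours among these 5 had overlapping intervals. In the PBS library Müller glia and rods overlapped at the top, and cones and bipolar cells below them.

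Fgf2 exceeded the rods' ratio to Sag in these other classes. The Sag UMIs of NaIO3 Müller glia, at that ratio, corresponded to 71.2 of the 296 Fgf2 UMIs counted there, those of bipolar cells to 52.0 of 248, those of cones to 156 of 187 and those of immune cells to 146 of 229. Rod markers took 0.558% of the UMIs of NaIO3 Müller glia and 0.224% of those of PBS Müller glia, all 15 of them detected in both. In cones they took 2.30% in NaIO3 and 2.45% in PBS, and Sag was at 4060 CPM in NaIO3 and 5525 CPM in PBS. The part of these rod transcripts in the Fgf2 ratios was not tested. The stricter gate left 10 Fgf2 UMIs in 32 NaIO3 cones (50.1 CPM) and 4 UMIs in 93 PBS cones (5.0 CPM). For Müller glia it gave 124 CPM in NaIO3 and 69.8 CPM in PBS, a log2 ratio of 0.84 (-0.18 to 2.07) against 1.43 (0.44 to 2.66), so that its interval then included no difference.

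**Figure D2:**
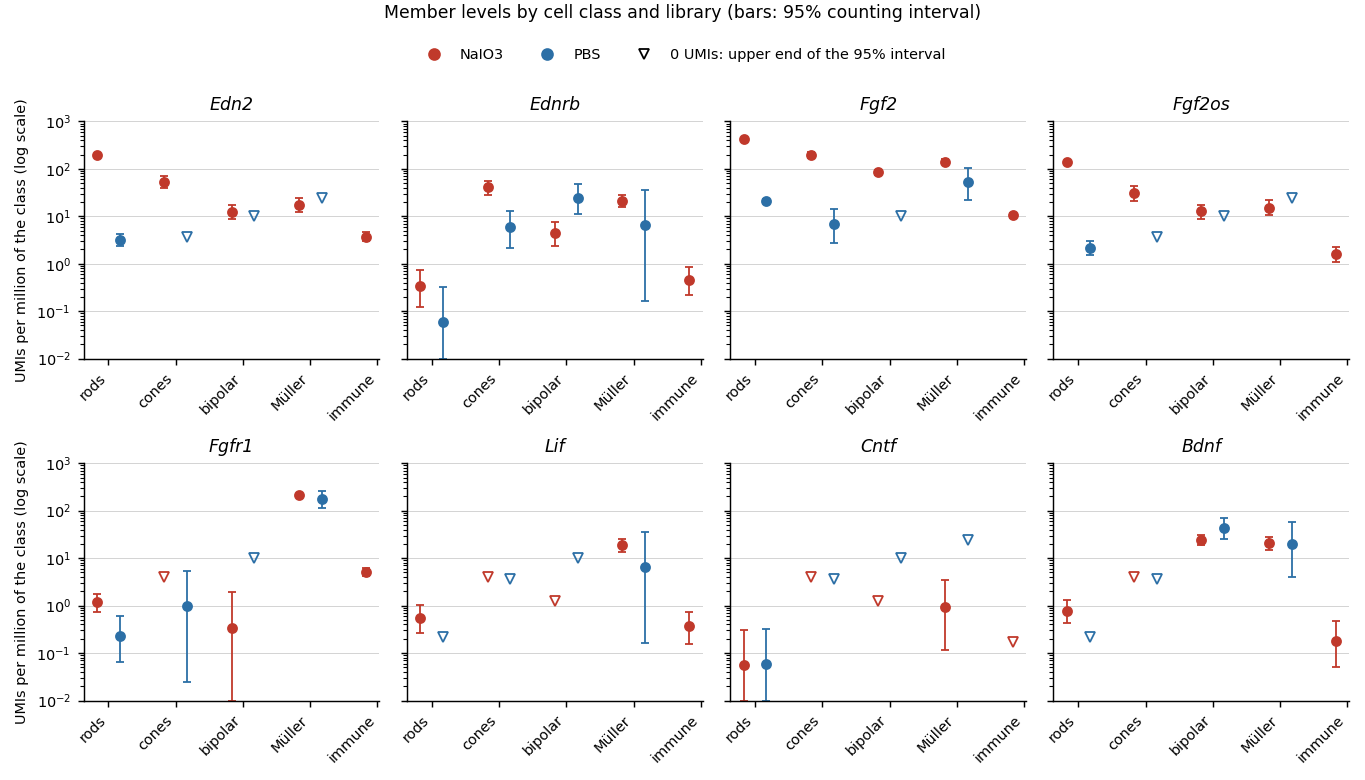
Level of each member (vertical axes, CPM, log scale) in 5 cell classes of the NaIO3 library (red, left of each pair) and the PBS library (blue, right), with 95% counting intervals cut off at 0.01; open triangles mark 0 UMIs at the upper end of the interval. PBS immune cells, 7 in all, are not drawn. Edn2 and Fgf2os are highest in NaIO3 rods, Fgfr1 and Lif in Müller glia, and Ednrb in NaIO3 cones.

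Fgf2os (chromosome 3, 37335332 to 37349740, minus strand, annotated antisense) had its highest level in NaIO3 rods. It held 2500 UMIs in NaIO3 rods (139 CPM, 134 to 144) and 37 UMIs in PBS rods (2.15 CPM, 1.51 to 2.97), a ratio of 64.6 (46.7 to 91.9). NaIO3 cones held 30.9 CPM against 0 UMIs in PBS cones, at least 10.6-fold higher. The stricter gate left 3 Fgf2os UMIs in 32 NaIO3 cones (15.0 CPM), and at the rods' ratio the Sag UMIs of NaIO3 cones corresponded to 51.3 Fgf2os UMIs where 29 were counted. Fgf2os gave 328 UMIs per 1000 Fgf2 UMIs in NaIO3 rods (314 to 344), against 155 in NaIO3 cones (101 to 230), 149 in bipolar cells (103 to 211), 108 in Müller glia (72.6 to 156) and 153 in immune cells (104 to 219), so that the rod interval lay above those of the other 4 classes. PBS rods had 103 per 1000. The genes overlap over 1395 bases but share no exon base in GENCODE M21. Strand use in the counting was not given in the sources used here, so reads of the overlap cannot be told apart with certainty. Nudt6, a hydrolase gene that shares 640 exon bases with Fgf2, was at 44.6 CPM in NaIO3 rods and 8.95 CPM in PBS rods, a ratio of 4.98 (4.18 to 5.95) with the same limit. Spata5, the next annotated gene beyond Nudt6, was at 41.9 CPM in NaIO3 rods and 18.9 CPM in PBS rods, a ratio of 2.22 (1.94 to 2.53).

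Of the receptors, Ednrb (chromosome 14, 103814625 to 103844402, minus strand), the endothelin B receptor, was highest in cones of the NaIO3 library, where it was lowest in rods and immune cells. Cones held 38 UMIs in 18 of 106 cells in NaIO3 (40.5 CPM, 28.7 to 55.6) and 6 UMIs in 5 of 117 cells in PBS (5.83 CPM, 2.14 to 12.7), a ratio of 6.95 (2.91 to 20.1). One NaIO3 cone gave 8 of the 38 UMIs, and without it the level was 32.2 CPM. NaIO3 rods held 0.333 CPM and PBS rods 0.0581 CPM. The stricter gate gave 80.2 CPM in 32 NaIO3 cones and 6.26 CPM in 93 PBS cones. Müller markers took 0.0114% of the UMIs of NaIO3 cones, with 1 of 12 (Kcnj10) at 0, and 0.00525% of those of PBS cones, with 7 of 12 at 0, Slc1a3, Aqp4 and Sox9 among them. Opn1sw, the short-wave opsin, was at 2767 CPM in NaIO3 cones and 10707 CPM in PBS cones, and the part of these differences in the Ednrb ratio was not tested.

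Ednrb ran the other way in bipolar cells, with 13 UMIs in NaIO3 (4.41 CPM, 2.35 to 7.54) and 9 UMIs in PBS (24.8 CPM, 11.3 to 47.1), a ratio of 0.178 (0.0703 to 0.471). The bipolar class was not made up alike in both libraries: Prkca, a rod bipolar marker, was detected in 89.4% of NaIO3 and 43.2% of PBS bipolar cells, and Scgn, a cone bipolar marker, in 15.6% and 56.8%. The part of that make-up in the ratio was not tested. In Müller glia 45 Ednrb UMIs in NaIO3 (21.4 CPM, 15.6 to 28.6) stood against 1 UMI in PBS, a ratio of 3.29 (0.560 to 133) that does not separate the libraries. On the log2 scale this is 1.72, which became 0.77 under the stricter gate and 0.03 when Müller glia with any share of rod markers were taken (13.2 CPM in NaIO3 and 12.9 CPM in PBS). A single NaIO3 Müller cell gave 13 of the 45.

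Fgfr1, an FGF2 receptor (chromosome 8, 25513654 to 25575718, plus strand), marked Müller glia in both libraries at levels that counting error could not separate. It held 440 UMIs in 129 of 176 NaIO3 Müller glia (209 CPM, 190 to 230) and 27 UMIs in 14 of 28 PBS Müller glia (176 CPM, 116 to 256), a ratio of 1.19 (0.806 to 1.83). In the NaIO3 library endothelial cells and pericytes came next with 47.5 CPM (32 to 67.8), then immune cells with 5.06 CPM, and rods held 1.17 CPM. Cones held 0 Fgfr1 UMIs in NaIO3 and 1 in PBS.

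Lif (chromosome 11, 4257557 to 4272514, plus strand), a gp130 cytokine, was rare and lay mostly in cells with Müller markers. The NaIO3 library held 273 Lif UMIs in 102 cells, and the PBS library 1 UMI in 1 cell. Of the NaIO3 UMIs, 39 lay in 16 of 176 Müller glia (18.6 CPM, 13.2 to 25.4), with 10 in a single cell, and 162 lay in 50 of the 407 droplets with both Müller and rod markers (12.4 CPM). PBS Müller glia held 1 UMI (6.52 CPM, 0.165 to 36.3), so the ratio of 2.85 (0.482 to 115) cannot separate the libraries within the class. Rods held 10 UMIs in NaIO3 and 0 in PBS, and cones and bipolar cells held 0 in both. NaIO3 Müller glia in which Lif was detected were deeper, at a median of 16472 UMIs, against 10979 where it was not. Of the 12 Müller markers, none was at 0 in NaIO3 Müller glia.

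Cntf and Bdnf, the other trophic ligands, were sparse, and counting error did not separate the libraries for Bdnf in bipolar cells or Müller glia, except in bipolar cells with no limit on mitochondrial UMIs. Cntf, the ciliary neurotrophic factor (chromosome 19, 12763660 to 12765632, minus strand), gave 16 UMIs in all NaIO3 cells and 1 in all PBS cells, 2 of them in NaIO3 Müller glia, which is too few to rank the classes. Bdnf, a TrkB ligand (chromosome 2, 109674700 to 109727007, plus strand), was at 24.4 CPM in NaIO3 bipolar cells (19.1 to 30.8) and 44.1 CPM in PBS bipolar cells (25.2 to 71.6), a ratio of 0.554 (0.319 to 1.02), or a log2 ratio of -0.85. With no mitochondrial limit the log2 ratio was -1.10 (-1.70 to -0.48). The bipolar class was not made up alike in both libraries, as given for Ednrb, and the part of that make-up in the Bdnf ratio was not tested. In Müller glia Bdnf was at 20.9 CPM in NaIO3 and 19.5 CPM in PBS, a ratio of 1.07 (0.343 to 5.39). Rods held 14 Bdnf UMIs in NaIO3 and 0 in PBS, and cones held 0 in both libraries.

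Read against all genes, members passing 5 CPM in either library and 20 summed UMIs numbered 3 of 8 in rods, 4 in cones, 5 in bipolar cells and 7 in Müller glia. The members at least 2-fold higher in NaIO3 were Edn2, Fgf2 and Fgf2os in rods, these and Ednrb in cones, Fgf2 in bipolar cells, and Fgf2, Ednrb and Lif in Müller glia, and Ednrb in bipolar cells was the 1 that was lower. Of all genes 12.3% of 9885 were as much higher in rods, 8.94% of 8582 in cones, 12.6% of 9938 in bipolar cells and 12.2% of 9683 in Müller glia. As much lower were 3.61% in rods, 5.44% in cones, 8.26% in bipolar cells and 13.1% in Müller glia. Since the members were chosen on this contrast, nothing is read from their counts. In rods 59 genes had a ratio of at least that of Edn2, counting Edn2, and 119 one of at least that of Fgf2. These are ranks on the contrast that the members were chosen on, and nothing is read from them either. TMM scaling moves every log2 ratio in rods by -0.34 and in Müller glia by 0.26. It turns 1219 higher and 357 lower genes in rods into 712 and 740, and 1182 higher and 1271 lower genes in Müller glia into 1758 and 766, and it leaves the log2 ratio of Edn2 in rods at 5.60 and that of Fgf2 at 4.0. In cones it turns 767 higher and 467 lower genes into 588 and 621.

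In single rods, both ligands were detected more often at higher depth. Among the 330 NaIO3 rods with at least 8000 UMIs, 98.5% held an Fgf2 UMI and 85.8% an Edn2 UMI, against 32.4% and 0.541% of 185 such PBS rods. Levels varied less: over 5 depth bins, from rods with under 1000 UMIs to those with at least 8000, Fgf2 ran between 364 and 435 CPM and Edn2 between 148 and 204 CPM. Thinned to 1000 UMIs per cell, which leaves out 528 shallower NaIO3 and 269 PBS rods, 16.8% of 4680 NaIO3 rods (15.7 to 17.9) held an Edn2 UMI, against 0.248% of 4841 PBS rods. For Fgf2 the shares were 32.4% and 2.21%, and for Fgf2os 12.5% and 0.186%. Thinned NaIO3 immune cells held Edn2 in 0.526%, Fgf2 in 1.58% and Fgf2os in 0.15% of 1330 cells (316 shallower ones left out). Medians before thinning were 7121 UMIs in immune cells and 2656 in rods. Rod markers took 0.0978% of the UMIs of NaIO3 immune cells, so these cells are no blank for rod transcripts.

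Rods with an Edn2 UMI held Fgf2 somewhat more often than those without. They did so 1.17 times as often at 500 UMIs per rod, and 1.13 times at 1000 and at 2000 UMIs. Only the difference in points rose with depth, as did the share of rods with Fgf2. At 1000 UMIs, 281 of the 785 rods with Edn2 held Fgf2 (35.8%, 32.4 to 39.3), against 1234 of the 3895 rods without (31.7%, 30.2 to 33.2), a difference of 4.11 percentage points with overlapping intervals. At 2000 UMIs, in 3309 rods, the shares were 56.8% (53.7 to 59.8) and 50.0% (48.0 to 52.1), a difference of 6.75 points whose intervals did not overlap, and at 500 UMIs the difference was 2.95 points. Both transcripts were seen in 6.0% of rods, where the product of their shares is 5.43%. Of 1911 genes found in at least 10% of these rods, 15.8% were at least 1.1 times more frequent beside Edn2 and 12.8% at least 1.1 times less, and Fgf2 was 1.13 times more frequent. Over all 8443 genes, rare ones included, these shares were 31.0% and 25.5%. The difference was 1.43 points when rods were limited to 5% mitochondrial UMIs and 1.56 points without the 5% of rods with the most UMIs. It was 22.7 points (72.0% and 49.3%) when rods were not thinned, a comparison in which deep rods hold more of both. In PBS rods 2 of 12 with Edn2 held Fgf2, and 105 of 4829 without.

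A pair of separate draws of 500 UMIs from each NaIO3 rod, added after the data had been seen, set this beside what each gene says of itself. Rods with Edn2 in the first draw held Edn2 in the second in 13.4% of cases (10.3 to 17), against 8.61% of the rods without (7.79 to 9.49), 1.56 times as often. Fgf2 recurred 1.43 times as often (24.0% and 16.8%) and Fgf2os 2.53 times as often (16.6% and 6.57%). Ifit3, an interferon response gene, recurred 17 times as often (41.7% and 2.45%). Stat3 recurred 1.3 times as often (10.6% and 8.15%) and Cebpd 2.68 times as often (26.3% and 9.82%). Of these genes Stat3 recurred the least and Ifit3 the most. Across draws, rods with Edn2 in the first held Fgf2 in the second in 21.1% of cases (17.2 to 25.3). Rods without Edn2 did in 17.9% (16.8 to 19.1), and these intervals overlapped. The other way round, rods with Fgf2 in the first draw held Edn2 in the second in 9.27% of cases (7.43 to 11.4). Rods without Fgf2 did in 8.99% (8.1 to 9.94).

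**Figure D3:**
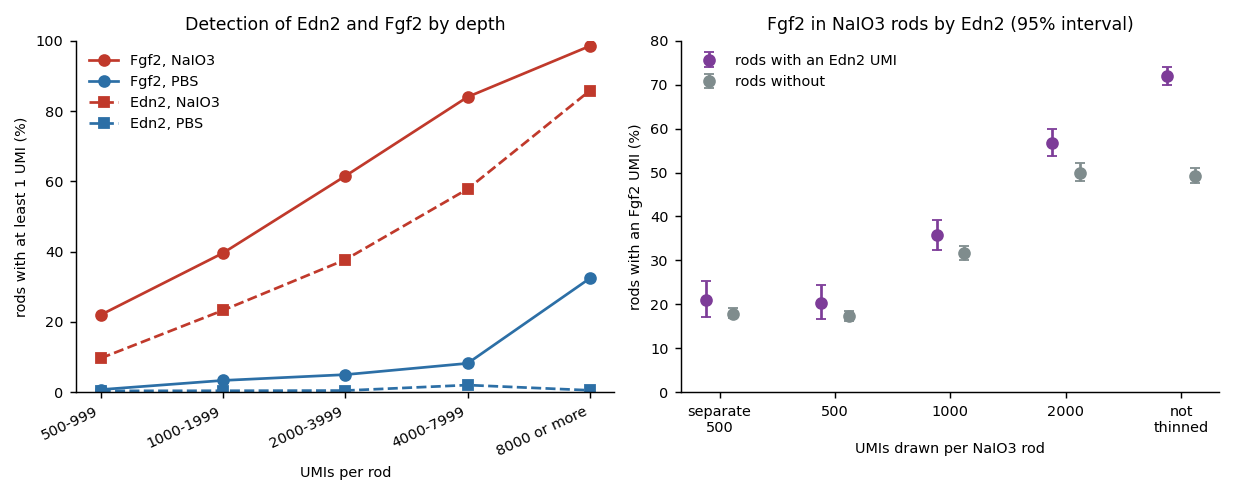
Left, share of rods with at least 1 UMI of Fgf2 (solid lines) or Edn2 (dashed lines) by UMIs per rod in NaIO3 (red) and PBS (blue). Right, share of NaIO3 rods with an Fgf2 UMI among rods with (purple) and without (grey) an Edn2 UMI, by the number of UMIs drawn per rod, with 95% intervals: 35.8% and 31.7% at 1000 UMIs, and 72.0% and 49.3% without thinning.

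Genes that went with Edn2 across the 4680 thinned NaIO3 rods did so weakly, as sparse counts allow, and their order is no finding. Pearson's r was computed over 7606 genes, and among the leading genes were E2f6, with an r of 0.072, Cd47, Mir124a-1hg, Malat1, Snrnp70, Agtpbp1, Agrn, Ppp1r2 and Mtmr2. For Fgf2 it was at most 0.089, and the leading genes were H3f3a, Hmgn1, Rock2, Tap1, Impg2, Pkig, Arl6, Ifit3b, Nap1l1 and Cox7c. Edn2 and Fgf2 had an r of 0.019, at rank 1000 of the genes by likeness to Edn2. At the other end of the Edn2 order stood rod genes, with r of -0.106 for Gnb1 and -0.074 for Gngt1, both transducin subunits. Of the STAT3 pathway genes, Cebpd was held by 25.2% of rods with Edn2 (22.2 to 28.4) and 19.8% of those without (18.6 to 21.1), and Stat3 by 18.2% (15.6 to 21.1) and 15.2% (14.1 to 16.4). The immediate early gene Fos was held by 58.0% (54.4 to 61.4) and 51.5% (49.9 to 53.0).

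Both ligands were lower in rods with a larger share of rod markers. In NaIO3 rods with 3 to 5% of UMIs in rod markers Edn2 was at 260 CPM (247 to 274) and Fgf2 at 492 CPM (473 to 511). At 5 to 7% they were at 185 and 419 CPM, at 7 to 10% at 110 CPM and 291 CPM, and at 10% or more at 26.6 CPM (8.64 to 62.1) and 224 CPM (161 to 302). The highest bin held 91 NaIO3 rods and 5 Edn2 UMIs. Rod markers took 5.70% of UMIs in NaIO3 rods and 10.7% in PBS rods. Within that highest bin NaIO3 rods still held more Edn2 and Fgf2 than PBS rods, which were at 2.42 CPM (1.58 to 3.55) and 18.2 CPM (15.7 to 20.9). The 158 NaIO3 rods at 2 to 3% were at 226 CPM for Edn2 (179 to 282), below the next bin, and at 536 CPM for Fgf2. Both quantities are shares of the same UMIs.

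**Figure D4:**
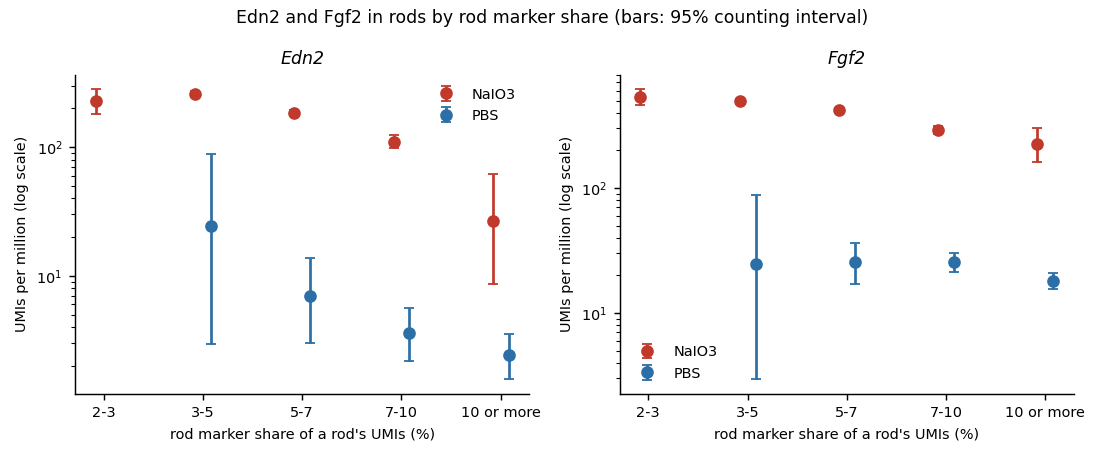
Levels of Edn2 and Fgf2 (vertical axes, CPM, log scale) in rods grouped by the share of their UMIs in 15 rod markers (horizontal axes), in NaIO3 (red) and PBS (blue), with 95% counting intervals. In NaIO3 rods Edn2 runs from 260 CPM at 3 to 5% to 26.6 CPM at 10% or more, and it stays above PBS rods in every bin that both libraries fill.

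Around these ligands, most LIF receptor and STAT3 genes that could be compared were at least 2-fold higher in NaIO3 rods. Few FGF feedback genes could be compared there. Genes under 5 CPM in both libraries or under 20 UMIs in sum were not compared. Of 6 gp130 receptors 3 could be compared in rods and 2 were at least 2-fold higher, beside 12.3% of all genes. The list median was 1.34 on the log2 scale beside 0.27 for all genes. Lifr, the LIF receptor, was at 195 CPM in NaIO3 rods and 77.1 CPM in PBS rods (ratio 2.53, 2.38 to 2.70), and Il6st, which encodes gp130, at 82.2 CPM and 20.8 CPM (3.95, 3.52 to 4.44). TMM scaling moves the log2 ratio of Lifr, 1.34, by -0.34, which puts Lifr at the 2-fold limit. Of 10 JAK-STAT3 genes 8 could be compared and 5 were higher, with a median of 3.17. Socs3, a feedback inhibitor of STAT3 signalling, was at 97.2 CPM in NaIO3 rods and 0.233 CPM in PBS rods, from 4 PBS UMIs. Cebpd, a transcription factor induced by STAT3, was at 270 CPM in NaIO3 rods and 3.02 CPM in PBS rods, and Stat3 at 187 CPM and 25 CPM. The AP-1 gene Junb was at 492 CPM in NaIO3 rods and 45.2 CPM in PBS rods.

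Of 14 FGF feedback and target genes 5 could be compared in rods, and none was at least 2-fold higher, beside 12.3% of all genes. With so few genes, little can be read from that count. Spry3 was lower, at 11.6 CPM in NaIO3 rods and 25.8 CPM in PBS rods, beside 3.61% of all genes. The list median was -0.88 beside 0.27 for all genes. TMM scaling moves every log2 ratio in rods by -0.34, so the number of lower genes in this list depends on the scaling. Below 2-fold, Dusp5 was at 28.9 CPM in NaIO3 rods and 17.2 CPM in PBS rods (ratio 1.68, 1.46 to 1.95). Under 5 CPM in rods and so not compared, Dusp6 was at 1.67 CPM in NaIO3 and 0.349 CPM in PBS (ratio 4.78, 1.96 to 14.0). Spred2, also under 5 CPM, went the other way, at 1.44 CPM in NaIO3 and 3.43 CPM in PBS. In Müller glia, where Fgfr1 lay, 11 could be compared, of which 3 were higher and 1 was lower, beside 12.2% and 13.1% of all genes. The list median was 0.01 beside -0.03 for all genes. Dusp6, a phosphatase that limits ERK signalling, was at 98 CPM in NaIO3 Müller glia and 39.1 CPM in PBS Müller glia (ratio 2.51, 1.13 to 6.91). Dusp5, of the same family, was at 50.9 CPM against 0 UMIs in PBS, at least 2.60-fold higher. Spry1 rested on 1 PBS UMI. Of 14 FGF receptors and co-receptors, 8 could be compared in Müller glia, with Sdc4, a heparan sulfate carrier, higher at 318 CPM in NaIO3 and 117 CPM in PBS, and Fgfrl1 lower at 30.4 CPM in NaIO3 and 65.2 CPM in PBS, a ratio of 0.467 (0.238 to 1.02) whose interval includes no difference. In rods 5 could be compared and none passed 2-fold. Of 22 FGF ligands 3 could be compared in rods and 4 in Müller glia, and Fgf2 was the 1 that passed 2-fold in either.

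In Müller glia 2 of the 5 gp130 receptors that could be compared were at least 2-fold lower and 1, Lifr, was higher, with a list median of -0.37. Beside this and the list counts below, 13.1% of all genes in Müller glia were as much lower and 12.2% as much higher. Cntfr, the CNTF receptor, was at 73.7 CPM in NaIO3 Müller glia and 332 CPM in PBS Müller glia, 4.51-fold lower (3.22 to 6.22). Il11ra1 was at 41.4 CPM and 97.7 CPM, 2.36-fold lower. TMM scaling moves every log2 ratio in Müller glia by 0.26. Before it the log2 ratio was -1.24 for Il11ra1, and -1.08 for Ctf1 and -1.26 for Ptn, named below. These 2-fold calls therefore depend on the scaling. Lifr was at 57.6 CPM in NaIO3 and 26.1 CPM in PBS, a ratio of 2.21 (0.841 to 8.24) that rests on 4 PBS UMIs and does not separate the libraries, and neither does that of Il6st, 0.773 (0.543 to 1.13). Of the 10 JAK-STAT3 genes 5 were higher in Müller glia (Stat3, Socs3, Cebpd, Junb and Gfap) and 2 lower (Tyk2 and Pim1), and the median was 1.02. Socs3 was at 167 CPM in NaIO3 and 13.0 CPM in PBS, from 2 PBS UMIs, and Cebpd at 933 CPM and 111 CPM. Tyk2, a Janus kinase, rested on 4 PBS UMIs, with an interval of its ratio (0.101 to 1.27) that included no difference. Gfap, the filament gene that marks reactive Müller glia, held 508 UMIs in NaIO3 and 0 in PBS, at least 12.4-fold higher. Of 9 LIF family cytokines none could be compared in rods and 4 could in Müller glia, with Lif higher on 1 PBS UMI and Ctf1 lower at 18.6 CPM in NaIO3 and 39.1 CPM in PBS (2.11-fold, 0.729 to 5.01). Of 19 neurotrophin, GDNF family and receptor genes, 7 could be compared in Müller glia and 3 were lower. Ngfr, the p75 neurotrophin receptor, was at 32.3 CPM in NaIO3 and 150 CPM in PBS, and Ptn and Gfra2 were 2.40-fold and 4.20-fold lower. In rods 4 could be compared and none passed 2-fold.

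Of 9 endothelin genes 2 could be compared in rods, Edn2 and Mmp2, a protease, which was at 6.22 CPM in NaIO3 rods and 0.174 CPM in PBS rods from 3 PBS UMIs. Edn1 gave 15 UMIs in NaIO3 Müller glia and 0 in PBS, and Ednra, the other endothelin receptor, 3 and 0. Ece1, an endothelin-converting enzyme, was at 30.9 CPM in NaIO3 Müller glia and 26.1 CPM in PBS Müller glia. Of the stress genes of photoreceptors 13 of 20 could be compared in rods and 9 were higher, beside 12.3% of all genes. Edn2 and Fgf2 are 2 of these 9 and were chosen on this contrast, as all lists were with its results known. The metallothionein Mt1 was at 164 CPM in NaIO3 rods and 11.6 CPM in PBS rods. Interferon response genes were higher in 10 of 10 that could be compared in rods, and immediate early genes in 6 of 9. Rod genes were at least 2-fold lower in 4 of 10, beside 3.61% of all genes, with Gngt1, a transducin subunit, 2.64-fold lower (2.62 to 2.66).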

How the data were processed

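The authors deposited unnormalized UMI counts for each library as filtered matrices, which Cell Ranger 3.0.2 wrote, per the file headers. Per the submitters' processing notes, mm10 was the build, with annotation and strand setting not given in the sources used here. Positions are from GENCODE M21, which held 30934 of the 31053 gene IDs, and 36 symbols stand for more than 1 gene. The members and all gene lists were chosen with earlier results of these data known. Barcodes were kept from 500 UMIs, 300 genes and up to 15% mitochondrial UMIs: 9441 of 9746 NaIO3 and 5573 of 6242 PBS barcodes. Library totals were 75981079 UMIs in NaIO3 and 26605477 in PBS. No clustering was done.

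Rods needed at least 2% of UMIs in 15 rod markers, cones 1% in cone markers, and bipolar cells, Müller glia and immune cells 0.8% in theirs. Amacrine cells needed 0.15%, and endothelial cells and pericytes 0.3%. Other cone, bipolar, Müller and immune lists had to be below 0.2% and smaller lists below 0.1%, unless under 2 UMIs. Rod markers had to be below 4% in cones and 1.5% in the rest. The gate left out 18 markers that other classes also carry. Doublets were not called by a tool. Cells with markers of several classes were left out by the gate, which cannot see doublets within a class. Class sums of UMIs per library were scaled to the class total as CPM. Levels have exact Poisson 95% intervals, shares exact binomial (Clopper-Pearson) ones and ratios exact conditional binomial ones, all for counting error only, and a count of 0 was set at 3 UMIs for bounds. Genes under 5 CPM in both libraries or under 20 UMIs in sum were not compared. Named genes were all members, up to 4 genes a list that passed 2-fold in rods or Müller glia, and the 10 genes with the highest r with Edn2 and Fgf2 among genes in at least 1% of rods. Some of the genes this rule takes are not reported here. Others named (Gfap, Edn1, Ednra, Ece1, Spry1, Tyk2, Pim1, Gnb1, Sag as the rod transcript for ratios, and the class markers) were chosen after their values were seen, as was the 10% minimum for genes compared beside Edn2. Python 3.11.15, numpy 2.4.6, scipy 1.17.1, pandas 2.3.3, R 4.3.3, edgeR 4.0.16 (TMM) and DESeq2 1.42.0 (size factors) were used. Folds and thinning were tested on simulated data.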

Additional observations from a re-analysis of the deposited data

How the results depend on the processing

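The 18 member ratios that could be set under other choices had 131 alternative values, of which 118 moved by less than the wider side of the main counting interval and 13 by more. Where PBS held 0 UMIs the values are bounds and were set against the 1 finite side. Alternatives that gave no usable fold are not counted, such as Edn2 in cones and in bipolar cells under the stricter gate. Wide main intervals also let large shifts pass. Ednrb in Müller glia (1.72, -0.84 to 7.05) counts as not moved at 0.03, and 0 of 43 alternatives in Müller glia count as moved. Of the 13, 3 were in rods and 10 in cones and bipolar cells. With no mitochondrial limit, the bound for Edn2 in cones was 4.87 and in bipolar cells 1.38, that for Fgf2os was 4.11 and 1.53, and Fgf2 in bipolar cells was at 5.76. The stricter gate gave 3.32 for Fgf2 and a bound of 2.0 for Fgf2os in cones, and a bound of 2.66 for Fgf2 in bipolar cells. Edn2 in cones had a bound of 3.78 without the 5% of cells with the most UMIs, and Ednrb in bipolar cells was at -4.50 at 5% mitochondrial UMIs. The sign changed for Bdnf in Müller glia alone, in 4 of its alternatives, where the log2 ratio of 0.10 was near 0 and its interval held 0. In rods, the log2 ratio of Edn2 was 6.40 at no more than 5% mitochondrial UMIs, against 5.94, and that of Fgf2 was 4.0 under TMM and under median-of-ratios scaling, against 4.34. The difference in Fgf2 share by Edn2 was 22.7 points without thinning, against 4.11.

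Counts of genes past 2-fold moved most. In rods 1219 higher genes became 712 under either scaling, 3731 with no filter and 726 at 20 CPM, and 357 lower genes became 740, 985 and 204, and 730 at 5% mitochondrial UMIs. In cones 767 higher genes became 1591 with no filter and 193 at 5% mitochondrial UMIs, which leaves 1 PBS cone, and 467 lower genes became 1010 with no filter and 706 under the stricter gate. In bipolar cells 1252 higher genes became 814 at 20 CPM and 106 at 5% mitochondrial UMIs, and 821 lower genes became 2209 with no filter, 1519 at 5% and 532 with no mitochondrial limit. In Müller glia 1182 higher genes became 1816 with the mean of per-cell CPM, and 1271 lower genes became 766 under TMM, 806 under median-of-ratios scaling, 2534 with no filter and 831 at 5% mitochondrial UMIs. The cause was not tested.

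Depth limits the PBS classes outside rods, with 28 Müller glia and 44 bipolar cells, so that Lif and Ednrb in Müller glia rest on 1 PBS UMI each. Müller glia with any share of rod markers, added after seeing the data, gave Fgf2 at 226 CPM in NaIO3 and 43.0 CPM in PBS, and Ednrb at 13.2 CPM in NaIO3 and 12.9 CPM in PBS. No paired analysis was possible because each group is 1 library.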
